A study of Mus musculus with 8 samples.

Results

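Immediate early genes are genes whose transcription starts within minutes of a stimulus without new protein synthesis, through transcription factors that are already present in the cell and are activated by calcium and kinase signals. In neurons they mark recent activity, and in glia and vascular cells they follow growth factors, injury, and stress. Their mRNAs are short-lived, so a level reflects the time shortly before the tissue was frozen. The 10 genes described here were chosen by symbol from the 25239 genes of the expression table, and all 10 were found and passed the filter on low values. They are the AP-1 factors *Fos*, *Fosb*, and *Junb*, the zinc finger factors *Egr1*, *Egr2*, and *Egr4*, the nuclear receptor *Nr4a1*, the neuronal factor *Npas4*, the synaptic gene *Arc*, and *Ier2*.

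RNA-seq was performed on the corpus callosum, the white matter tract between the cerebral hemispheres, of young adult male C57BL/6 mice (C57BL/6J in the methods). Bilateral common carotid artery stenosis (BCAS) narrows both carotid arteries with microcoils and lowers cerebral blood flow for weeks, and the sham operation isolates the arteries without coils. Mice were wild type (WT) or carried a deletion of the ion channel TRPA1 in all tissues (TRPA1-KO, backcrossed to C57BL/6J). For either genotype, sham tissue was sequenced on day 14 (1 library) and BCAS tissue on days 7, 10, and 14 (1 library a day), which makes 8 libraries with 7896071 to 12952093 reads on genes. The methods describe samples as taken from individual mice, and no day had a second library of the same label. The 3 BCAS libraries of a label were therefore used as its replicates, and their spread includes that between days. Both sham libraries came from day 14, so for days 7 and 10 the operation and the day cannot be told apart.

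The libraries' labels were first compared with the targeted gene. With the label WT, *Trpa1* had 1 read in sham and 0 reads in each of the 3 BCAS libraries. With the label TRPA1-KO, it had 10 reads in sham and 11, 3, and 7 reads after BCAS on days 7, 10, and 14. These reads go against the genotype labels, although a count per gene can include exons outside the deleted stretch. Groups are therefore named by their labels throughout, and every direction between genotypes rests on those labels.

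The tissue was checked with marker genes. Oligodendrocyte genes were abundant, led by *Mbp* (5130 to 7246 CPM, reads on a gene scaled to a common library size), which encodes a myelin protein. Neuronal genes were abundant as well. The vesicular glutamate transporter gene *Slc17a7*, a marker of cortical excitatory neurons, lay between 1024 and 1349 CPM, and *Camk2a*, which encodes a kinase of excitatory synapses, lay between 2076 and 2625 CPM. The dissected tissue thus held neuronal RNA beside that of myelinating cells. In such bulk RNA, a change in the number of cells and a change in the RNA per cell cannot be told apart.

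In GENCODE M21 on GRCm38, *Fos* lies at chr12:85473890-85477273 (+), *Fosb* at chr7:19302696-19310051 (−), and *Junb* at chr8:84974484-84978718 (−). *Egr2* lies at chr10:67535475-67542188 (+) and *Egr4* at chr6:85511121-85513589 (−). *Nr4a1* lies at chr15:101254269-101274795 (+), *Npas4* at chr19:4984355-4990316 (−), *Arc* at chr15:74669083-74672570 (−), and *Ier2* at chr8:84661331-84662852 (−). All 10 are protein coding. *Junb* overlaps *Prdx2* on the opposite strand, and the strand setting of the counting is not given in the sources used here, so its counts may hold reads of *Prdx2*.

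The promoters of these genes are known for binding sites of CREB (the cyclic AMP response element, CRE) and of serum response factor (the CArG box). Promoter sequences from RefSeq (GRCm38.p6) were given for 7 of the 10 genes and were searched on both strands over the 250 bases before the start. The core of the CRE (TGACG, or CGTCA on the other strand, which a full CRE would also contain) was present in at least 1 promoter of 7 of 7 genes and in 9 of their 11 promoters, against 17.8% of the 32851 promoters of the table. *Egr2* has 5 of the 11 promoters, which overlap in part, and 2 of these 5 hold no core. The full CRE (TGACGTCA) was present in 0 of the 11 promoters and in 1.55% of all, and the AP-1 site (TGACTCA) in 0 of 11 and in 4.46%. The CArG box was present in 4 of the 11, all of *Egr2*, and in 1.47% of all promoters. *Fos* and *Egr4* are shown over the 250 bases as examples. Each has 1 start in the table and no annotated exon of these genes there, as do *Junb* and *Nr4a1*, which are not shown. *Egr2* and *Npas4* are shown for the 30 bases around closely spaced matches. Capitals mark the matches, and each sequence reads 5′ to 3′ on the gene's strand. A match is a description of the letters and no evidence of binding.
Fos promoter, chr12:85473640-85473889 (+): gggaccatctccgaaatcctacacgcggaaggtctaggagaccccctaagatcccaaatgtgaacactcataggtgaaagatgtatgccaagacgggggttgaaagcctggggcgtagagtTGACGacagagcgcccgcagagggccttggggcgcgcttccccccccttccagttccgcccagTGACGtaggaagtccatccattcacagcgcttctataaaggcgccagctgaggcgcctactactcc
Egr4 promoter, chr6:85513590-85513839 (−): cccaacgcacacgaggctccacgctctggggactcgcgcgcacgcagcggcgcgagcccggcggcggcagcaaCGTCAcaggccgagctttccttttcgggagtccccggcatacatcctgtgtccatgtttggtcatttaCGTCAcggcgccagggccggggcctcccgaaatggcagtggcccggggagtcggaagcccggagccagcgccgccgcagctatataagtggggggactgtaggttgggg
Egr2 stretch, chr10:67537789-67537818 (+): tcctcagtCCATATATGGgcagcgaCGTCA
Npas4 stretch, chr19:4990128-4990157 (−): cgttcgaCGTCAcgggaTGACGtcggaagt
In *Fos*, the CRE cores ended 125 and 62 bases before the start, and in *Egr4* 173 and 105 bases before it. *Egr2* has several starts in RefSeq, and the stretch shown lies 80 to 51 bases before one of them, with the CArG box and a CRE core side by side. *Npas4* held 2 CRE cores on opposite strands within the 30 bases shown. This stretch lies before the RefSeq start but inside the GENCODE span of *Npas4* given above. An annotated exon overlaps the 250 bases searched for this gene.

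Per kilobase of exon, *Arc* (110 CPM per kb, mean over 8 libraries) and *Egr1* (86.1) had the highest levels, followed by *Nr4a1* (36.7), *Junb* (30.8), *Egr4* (16.4), and *Fos* (14.1). *Ier2* (8.06), *Npas4* (6.12), *Egr2* (4.28), and *Fosb* (2.81) were lowest. The order of neighbours held in 8 of 8 libraries for 5 of the 9 neighbouring pairs. It held in 6 of 8 for *Arc* over *Egr1*, *Egr4* over *Fos*, *Ier2* over *Npas4*, and *Egr2* over *Fosb*, which did not differ beyond their spread. All 10 genes varied widely between libraries. The SD of log2(CPM + 1) over the 8 libraries was 0.39 (*Npas4*) to 0.78 (*Egr2*), with a median of 0.51, against a median of 0.13 over the 12435 genes that averaged 5 CPM or more. Each library held 56 to 5472 reads of each member, so counting error was small beside these differences. The smallest count, 56 reads of *Egr2*, corresponds to 5.83 CPM with an exact 95% Poisson interval of 4.40 to 7.57, which covers counting error only.

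Most members shared one shape across libraries. The BCAS libraries labelled TRPA1-KO were highest on days 7 and 10, and the library of the same label on day 14 was among the lowest. After BCAS, most members with the label WT lay at or below sham. Summed over the members, the sham libraries held 988 CPM (WT) and 1122 CPM (TRPA1-KO). After BCAS, the sums with the label WT were 759, 939, and 807 CPM on days 7, 10, and 14. With the label TRPA1-KO the sums were 1700, 1550, and 615 CPM on the same days. On both day 7 and day 10, the BCAS library labelled TRPA1-KO lay above all 6 other libraries for 9 of 10 members, a pattern found in 4.40% of the 18123 genes tested and noticed here in the values. The exception was *Npas4*. The day 14 library labelled TRPA1-KO was below the days 7 and 10 libraries for 10 of 10 members, as were 33.8% of all genes tested, and it was the lowest of the 8 for 6 members. This library stands apart from the other libraries of its group, so each comparison that uses it is also given without it. It was singled out because the members were low in it, so the values without it follow in part from that choice and are a description, not independent support.

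**Figure D1:**
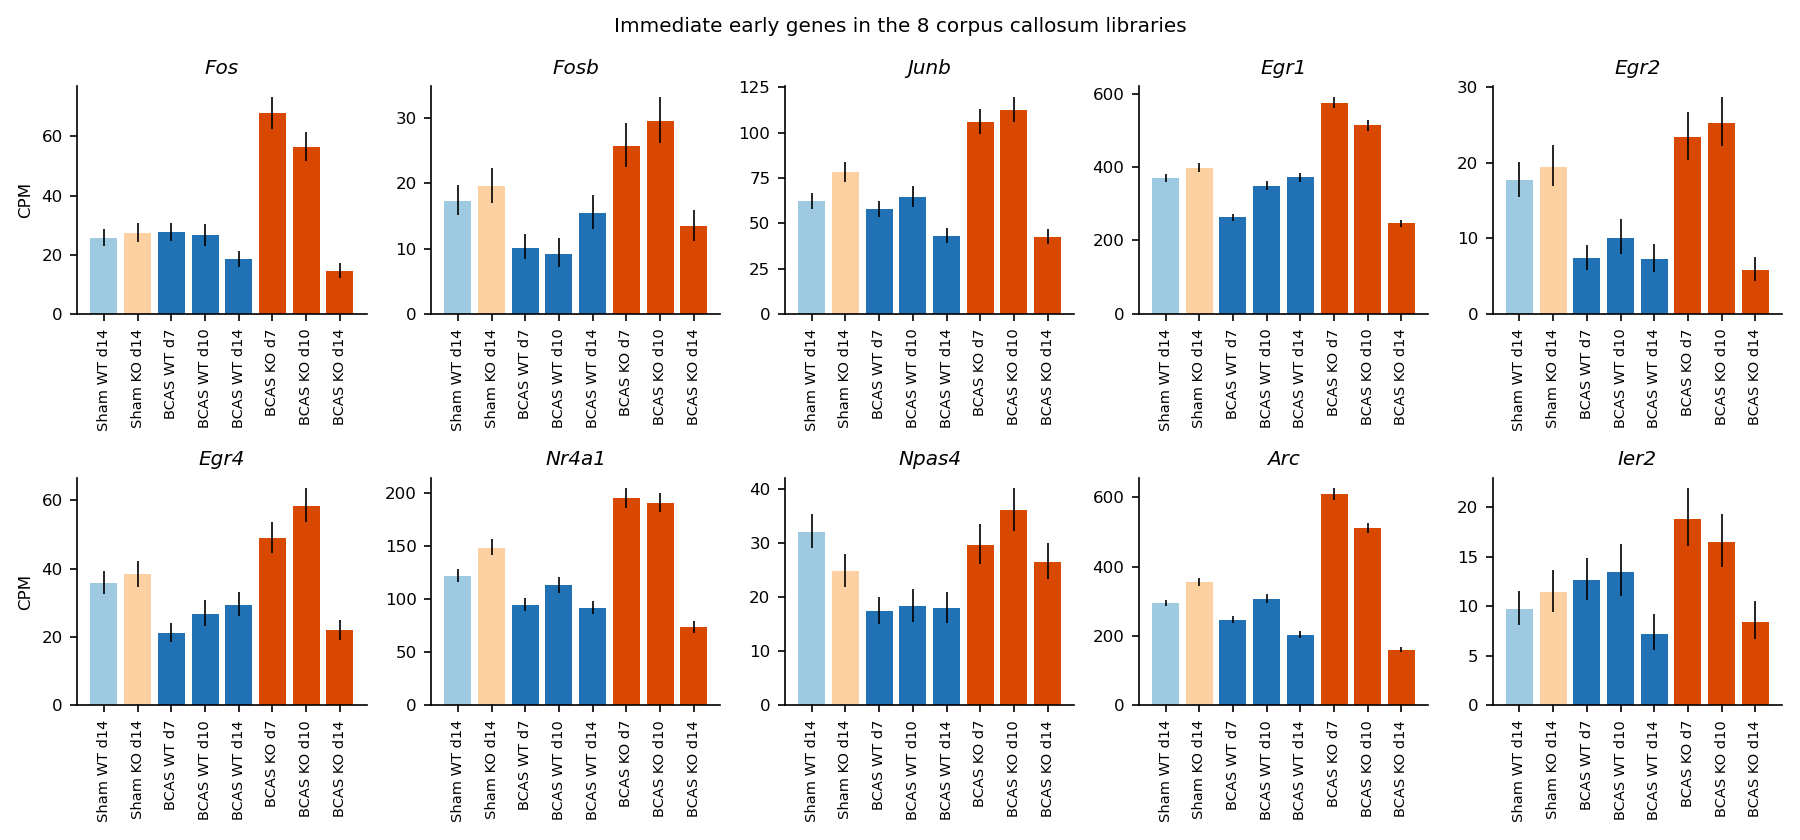
Level of each immediate early gene (CPM, linear axis from 0) in the 8 libraries, with KO for TRPA1-KO and d for the day. Bars are single libraries, error bars are exact 95% Poisson intervals of the read counts, light bars are sham and dark bars BCAS; for 9 genes the BCAS libraries labelled TRPA1-KO of days 7 and 10 are the highest, and *Npas4* is low in the 3 BCAS libraries labelled WT.

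The AP-1 factors *Fos*, *Fosb*, and *Junb* encode partners of a dimer that binds the AP-1 site. *Fos* measured 25.7 and 27.2 CPM in the sham libraries labelled WT and TRPA1-KO. It measured 27.7, 26.6, and 18.4 CPM in BCAS labelled WT on days 7, 10, and 14, and 67.8, 56.6, and 14.6 CPM in BCAS labelled TRPA1-KO. The BCAS groups overlapped, because *Fos* with the label TRPA1-KO was 4.65 times higher on day 7 than on day 14, which was the widest range over libraries of any member. *Fosb*, a slower and longer-lasting member of the family, measured 17.3 and 19.6 CPM in the sham libraries, 10.1, 9.20, and 15.5 CPM in BCAS labelled WT, and 25.7, 29.6, and 13.4 CPM in BCAS labelled TRPA1-KO. All 3 BCAS libraries labelled WT lay below both sham libraries, and the BCAS groups overlapped on day 14 alone, where the library labelled WT was above that labelled TRPA1-KO. *Junb* measured 62.2 and 78.2 CPM in sham, 57.6, 64.7, and 43.1 CPM in BCAS labelled WT, and 106, 113, and 42.7 CPM in BCAS labelled TRPA1-KO. On day 14 both labels gave almost the same *Junb* level.

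The Egr factors bind GC-rich sites and regulate synaptic and, for *Egr2*, peripheral myelin genes. *Egr1* measured 371 and 398 CPM in the sham libraries, 263, 349, and 372 CPM in BCAS labelled WT, and 575, 513, and 247 CPM in BCAS labelled TRPA1-KO. It was the only member that was not below its own-label sham on day 14 with the label WT. *Egr2* measured 17.7 and 19.5 CPM in sham, 7.38, 10.1, and 7.24 CPM in BCAS labelled WT, and 23.4, 25.3, and 5.83 CPM in BCAS labelled TRPA1-KO. For *Egr2*, the BCAS libraries labelled WT and the day 14 library labelled TRPA1-KO formed a low set, and the sham libraries and the other 2 BCAS libraries a high one. *Egr4*, whose product acts mainly in neurons, measured 35.8 and 38.4 CPM in sham, 21.3, 26.8, and 29.5 CPM in BCAS labelled WT, and 49.0, 58.4, and 22.0 CPM in BCAS labelled TRPA1-KO. Every BCAS library labelled WT lay below both sham libraries for *Egr4*.

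*Nr4a1* encodes an orphan nuclear receptor induced by calcium and inflammatory signals. It measured 122 and 149 CPM in sham, 94.9, 113, and 91.9 CPM in BCAS labelled WT, and 195, 191, and 73.7 CPM in BCAS labelled TRPA1-KO. *Arc* encodes a protein that moves to active synapses and controls glutamate receptor uptake. It measured 295 and 356 CPM in sham, 247, 307, and 204 CPM in BCAS labelled WT, and 609, 511, and 161 CPM in BCAS labelled TRPA1-KO. *Arc* with the label TRPA1-KO was 3.78 times higher on day 7 than on day 14, against 1.21 times with the label WT. *Ier2*, which encodes a nuclear regulator induced by growth factors, measured 9.70 and 11.4 CPM in sham, 12.6, 13.5, and 7.24 CPM in BCAS labelled WT, and 18.8, 16.4, and 8.43 CPM in BCAS labelled TRPA1-KO. With both labels, *Ier2* was above sham on days 7 and 10 and below it on day 14.

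*Npas4* differed in shape from the other members. It encodes a transcription factor that neurons make in response to calcium entry and that regulates inhibitory synapses. *Npas4* measured 32.0 (WT) and 24.7 CPM (TRPA1-KO) in sham. It measured 17.3, 18.3, and 17.9 CPM in BCAS labelled WT, and 29.6, 36.0, and 26.5 CPM in BCAS labelled TRPA1-KO. After BCAS, the libraries labelled WT were close together and below the 5 other libraries, and *Npas4* with the label TRPA1-KO did not drop below its sham library on day 14. As a description over 8 libraries, which share their depth scaling and tissue, Pearson's r of log2(CPM + 1) between pairs of members had a median of 0.88 over the 36 pairs without *Npas4* and of 0.60 over the 9 pairs with it. The lowest r was 0.35, between *Npas4* and *Ier2*. Since the members varied largely together, they are not independent observations. A count of members set beside a share of all genes below is therefore a description.

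The BCAS groups were compared first, since the study set the genotypes against each other after BCAS. All 10 members were lower with the label WT than with the label TRPA1-KO, as were 49.7% of all genes tested, and the median difference in log2(CPM + 1) was -0.59, against 0.00 over all genes. *Npas4* fell to 17.8 ± 0.468 CPM with the label WT against 30.7 ± 4.82 CPM with the label TRPA1-KO (SD, n = 3 libraries each). Its difference of -0.74 ± 0.12 (SE) on the log2(CPM + 1) scale ranked 10th of 18123 genes by p (limma, adjusted p = 0.26). *Fosb* was lower too, at 11.6 ± 3.38 against 22.9 ± 8.44 CPM, with a difference of -0.88 ± 0.28 (limma, adjusted p = 0.98). The other 8 members differed by -0.84 (*Egr2*) to -0.33 (*Ier2*) and did not pass by limma over these 6 libraries. By edgeR, *Egr2* and *Egr4* also had a p under 0.05, as did *Egr4* by limma over all 8 libraries. A limma p under 0.05 before adjustment, the threshold used throughout unless an adjusted p is named, was reached by 2 of 10 members (*Npas4* and *Fosb*), against 4.20% of all genes in either direction and 1.80% of all genes lower with the label WT. None of the members passed an adjusted p of 0.05 by limma, and 0.0166% of all genes did. By DESeq2, *Npas4* did (adjusted p = 0.0088, against a range of 0.0088 to 1 over the 14 alternatives), as did 0.0939% of the genes DESeq2 gave a value for. For 1 member, *Npas4*, every library labelled WT lay below every library labelled TRPA1-KO, as for 4.73% of all genes, and the exact two-sided permutation p was 0.1, the smallest that 3 against 3 libraries can give.

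The labels of the libraries give the day, so the comparison was also fitted with the day as a replicate block. With this block, 5 of 10 members had a limma p under 0.05, against 3.49% of all genes. They were *Npas4* and *Fosb* as before and also *Fos* (-0.67), *Junb* (-0.55), and *Egr2* (-0.84), and none passed an adjusted p of 0.05.

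The difference between the BCAS groups depended on day 14. On day 7 and on day 10, all 10 members were higher with the label TRPA1-KO, with a median difference in log2(CPM + 1) of 1.15 on day 7 and 0.87 on day 10, where 48.6% and 49.4% of all genes were higher. On day 7 the level with the label TRPA1-KO was 2.45 times that with the label WT for *Fos* and 3.17 times for *Egr2*, and on day 10 it was 3.21 times for *Fosb*. On day 14 this ratio was above 1 for *Npas4* (1.48) and *Ier2* (1.16) alone, and the median difference of the members was -0.29. Without the day 14 library labelled TRPA1-KO, the median difference of WT from TRPA1-KO was -1.01, and 10 of 10 members had a limma p under 0.05, against 4.65% of all genes. In that fit *Nr4a1* differed by -0.95 with an adjusted p of 0.026. The median shrank to -0.31 without the day 7 library labelled TRPA1-KO and to -0.34 without that of day 10. Without the day 10 library labelled TRPA1-KO, 1 member (*Npas4*) had a p under 0.05. Each day had 1 library per label, so the day, the animal, and the handling of a single library cannot be told apart.

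**Figure D2:**
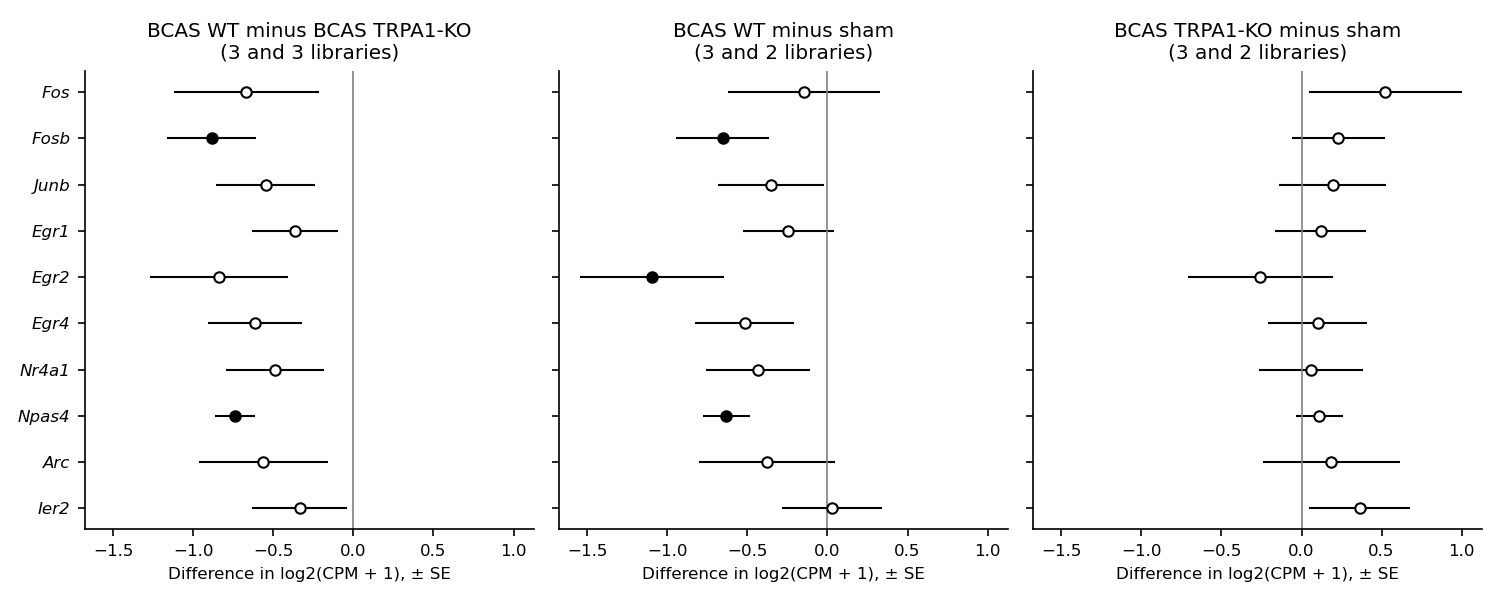
Difference in log2(CPM + 1) ± SE from limma (x axis) for the 10 members (rows) in 3 comparisons, with 3 libraries in each BCAS group and 2 sham libraries. Filled points have a p under 0.05 before adjustment: *Fosb* and *Npas4* between the BCAS groups, and *Fosb*, *Egr2*, and *Npas4* for BCAS labelled WT against sham.

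Both BCAS groups were then set against the same 2 sham libraries, which these comparisons share. With the label WT, 9 of 10 members were lower after BCAS, as were 50.4% of all genes, with a median difference of -0.40 in log2(CPM + 1). This median was -0.26 without the sham library labelled TRPA1-KO and -0.89 with the day as a replicate block. *Npas4* (-0.63 ± 0.15, adjusted p = 0.73), *Egr2* (-1.10 ± 0.45, adjusted p = 0.89), and *Fosb* (-0.65 ± 0.29, adjusted p = 0.91) fell at a p under 0.05 before adjustment by limma. That is 3 of 10 members, against 5.45% of all genes in either direction and 3.01% of all genes lower after BCAS. *Npas4* measured 17.8 ± 0.468 CPM after BCAS against 28.4 ± 5.13 CPM in sham, *Egr2* 8.24 ± 1.60 against 18.6 ± 1.26 CPM, and *Fosb* 11.6 ± 3.38 against 18.4 ± 1.61 CPM (SD, n = 3 and 2 libraries). *Ier2* differed by 0.03 ± 0.31. Every BCAS library labelled WT lay below both sham libraries for 5 members, *Fosb*, *Egr2*, *Egr4*, *Npas4*, and *Nr4a1*, and for 11.0% of all genes. No member passed an adjusted p of 0.05 by limma, edgeR, or DESeq2, and 0% of all genes did by limma. Without the day 14 library labelled TRPA1-KO, which enters this fit only through the shared estimate of spread, 7 members had a p under 0.05, against 5.29% of all genes. *Npas4* passed in all 15 alternatives. *Fosb* lost its call in 7 of 15, which were no filter on low values, the day as a block, and leaving out either sham library, the day 7 or day 10 library labelled WT, or the day 7 library labelled TRPA1-KO. *Egr2* lost it in 6 of 15, which were no filter, DESeq2, and leaving out either sham library or the day 7 or day 14 library labelled WT. With the day as a replicate block, 8 of 10 members were lower after BCAS at a p under 0.05 (all except *Fosb* and *Egr1*), against 2.81% of all genes, and *Ier2* stood at -0.55. Both sham libraries are from day 14, so in this fit the difference from sham rests on the day 14 libraries and on the changes between days that the labels share.

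With the label TRPA1-KO, 9 of 10 members were higher after BCAS than in sham, while 50.6% of all genes were lower, with a median difference of 0.15 in log2(CPM + 1), from -0.26 ± 0.45 (*Egr2*) to 0.52 ± 0.48 (*Fos*). This direction turned with the libraries used. With the day as a replicate block, 8 of 10 members were lower than sham, with a median of -0.27. Without the day 7 library of this label 6 of 10 were lower (median -0.03), and without that of day 10 7 of 10 (median -0.04). None had a limma p under 0.05, against 2.74% of all genes, or an adjusted p under 0.05, against 0.00552% of all genes, and none reached either threshold by edgeR or DESeq2. *Fos* measured 46.3 ± 28.1 CPM after BCAS against 26.5 ± 1.06 CPM in sham (SD, n = 3 and 2 libraries), and the groups overlapped for all 10 members, while they did not overlap for 18.6% of all genes. On days 7 and 10, all 10 members were above the sham library of the same label, as were 48.7% and 48.6% of all genes, with a median change of 0.41 and 0.52 in log2(CPM + 1). *Fos* was 2.49 and 2.08 times its sham level and *Arc* 1.71 and 1.43 times. On day 14, 9 of 10 were below it, while 49.8% of all genes were above it, with a median change of -0.82, and *Egr2* stood at 0.299 times and *Arc* at 0.452 times the sham level. Without that day 14 library, the median difference from sham was 0.54 and 8 members had a p under 0.05, against 4.06% of all genes, with *Fos* at 1.20 (limma, adjusted p = 0.45). The libraries labelled WT were also below their sham library for 9 of 10 members on day 14, while 47.4% of all genes were above it, with a median change of -0.43. With the day as a replicate block, 1 member (*Egr2*, -0.96) had a p under 0.05, against 2.05% of all genes, and *Fos* stood at -0.33.

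**Figure D3:**
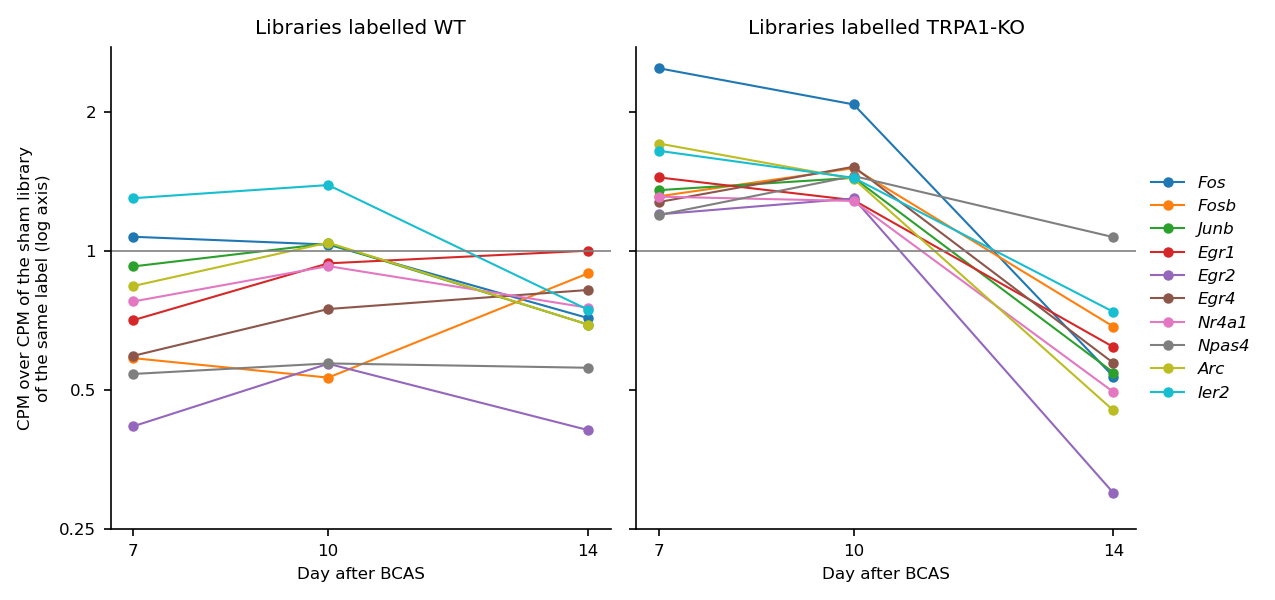
Ratio of each member's CPM to that of the sham library with the same label (y axis, log scale) by day after BCAS (x axis), 1 line per gene and 1 library per point. With the label TRPA1-KO all 10 lines lie above 1 on days 7 and 10 and 9 lie below 1 on day 14, and with the label WT *Npas4* and *Egr2* stay between 0.410 and 0.571.

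The response to BCAS itself was compared between labels with the interaction term, in which each label's BCAS libraries are set against its own sham library and the single sham libraries are assumed to vary like the BCAS libraries. All 10 members had a lower response with the label WT, as did 49.1% of all genes, with a median of -0.40. Without the day 7 library labelled TRPA1-KO, 7 of 10 did (median -0.11, higher for *Arc*, *Nr4a1*, and *Ier2*), without that of day 10 8 of 10 (median -0.18, higher for *Nr4a1* and *Junb*), and without the day 14 library labelled WT 9 of 10 (higher for *Ier2*). *Npas4* differed by -1.10 ± 0.25 in log2(CPM + 1) (limma, adjusted p = 1.0), which ranked 3rd of all genes by p. It was the 1 member with a p under 0.05, against 1.50% of all genes. No member and 0% of all genes passed an adjusted p of 0.05 by limma, and no member did by edgeR or DESeq2. Without the day 14 library labelled TRPA1-KO, 9 members (all except *Ier2*) had a p under 0.05, against 1.81% of all genes, with a median of -0.91, and *Npas4* stood at -1.20. The smallest adjusted p of the members was then 1.0.

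Other genes of the same response were taken from lists, of which the counts and values are given for each comparison. Among 18 other rapid-response transcription factors, 11 were lower with the label WT between the BCAS groups (49.7% of all genes were), with a median of -0.08, and 2 passed a limma p of 0.05 (4.20% of all genes did). *Fosl2*, an AP-1 partner, measured 35.6 and 29.9 CPM in sham, 30.3, 22.7, and 35.1 CPM in BCAS labelled WT, and 60.0, 58.1, and 26.2 CPM in BCAS labelled TRPA1-KO (-0.62). *Klf4*, a zinc finger factor of quiescence and vascular protection, measured 7.04 and 7.10 CPM in sham, 2.93, 4.16, and 3.73 CPM in BCAS labelled WT, and 7.35, 7.69, and 4.16 CPM in BCAS labelled TRPA1-KO (-0.65). *Klf4* also fell with the label WT against sham (-0.82), and *Nfil3*, a bZIP repressor, rose (0.52). The most abundant genes of this list did not pass in any of the 3 comparisons. *Egr3* lay between 105 and 209 CPM, *Jund* between 134 and 160, *Ier5* between 73.7 and 123, and *Klf6* between 46.8 and 64.2 CPM. The summed level of the list, to which its most abundant genes contribute most, had r = 0.94 with the members' mean z score over 8 libraries. Single genes went the other way, namely *Klf6* (r = -0.75), *Myc* (-0.66), *Atf3* (-0.46), *Jun* (-0.23), and *Maff* (-0.23). *Jun* and *Atf3* were highest in BCAS labelled WT on day 7, at 72.2 and 12.5 CPM.

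Feedback regulators are induced with the immediate early genes and limit the kinase signals that drive them. Of 16 such genes, 12 were lower with the label WT between the BCAS groups, against the same 49.7% of all genes, with a median of -0.18 in log2(CPM + 1), and none passed a p of 0.05 in any of the 3 comparisons. *Dusp1*, a phosphatase of stress-activated kinases, measured 41.3 and 38.6 CPM in sham, 37.4, 37.1, and 27.7 CPM in BCAS labelled WT, and 65.8, 59.0, and 29.7 CPM in BCAS labelled TRPA1-KO (-0.52). It followed the members' mean z score with r = 0.94 over 8 libraries, while *Socs3* (r = -0.16) and *Zfp36* (-0.05) did not follow it. *Dusp6*, a dual-specificity phosphatase, lay between 42.0 and 85.7 CPM, *Spry2*, an inhibitor of receptor kinase signals, between 40.9 and 57.2 CPM, and *Dusp14* between 35.0 and 56.0 CPM. On days 7 and 10 the libraries labelled TRPA1-KO both lay above the 6 other libraries for 8 of the 16 genes and for 9 of the 18 transcription factors, against 4.40% of all genes.

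The list named later neuronal activity genes holds genes of secreted, synaptic, and signalling products, many of which rise after the immediate early genes. Of 13 such genes, 12 were lower with the label WT between the BCAS groups, against 49.7% of all genes, with a median of -0.15. None passed, against 4.20% of all genes. Against sham with the label WT, *Rgs2*, a brake on G protein signals (-0.42), and *Inhba*, an activin subunit (-0.47), fell. At this threshold, 3.01% of all genes fell. *Rgs2* measured 53.7 and 56.3 CPM in sham, 35.0, 48.5, and 40.0 CPM in BCAS labelled WT, and 44.9, 48.7, and 43.1 CPM in BCAS labelled TRPA1-KO. *Vgf* lay between 164 and 260 CPM, *Plk2* between 170 and 203, *Sst* between 122 and 196, and *Scg2* between 134 and 176 CPM. The BCAS libraries labelled TRPA1-KO of days 7 and 10 both exceeded the 6 others for 1 of the 13 genes, against 4.40% of all genes.

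Upstream regulators carry the signal to the promoters, among them CREB, serum response factor with its partners, MEF2, and calcium-dependent kinases. Of the 19 measured, 7 were lower with the label WT between the BCAS groups, against 49.7% of all genes, with a median of 0.02. None passed, against 4.20% of all genes. Their summed level lay between 2805 and 3087 CPM, a range of 1.10 times, while that of the members spanned 2.76 times. *Camk4*, a calcium kinase that activates CREB, fell against sham with both labels (-0.38 with WT and -0.26 with TRPA1-KO). *Crem*, a CREB relative whose short form is itself inducible, rose with the label TRPA1-KO (0.44). The abundant members of this list, *Mef2c* (476 to 653 CPM), *Mrtfb* (254 to 311), and *Mef2d* (237 to 275), did not pass.

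Stress-induced genes of other pathways were examined beside them. Of 10 glucocorticoid-induced genes, *Arl4d* was lower with the label WT between the BCAS groups (-0.41) and *Cdkn1a* higher (0.45), and the list's median was 0.09. In that comparison, 4.20% of all genes passed in either direction. *Tsc22d3* fell against sham with the label WT (-0.30). *Per1*, which responds to CREB as well as to the glucocorticoid receptor, lay between 107 and 202 CPM and had r = 0.92 with the members' mean z score. *Sgk1* lay between 181 and 330 CPM and *Zbtb16* between 48.8 and 124 CPM. None of 9 heat shock genes passed in any of the 3 comparisons, with a median of 0.06 between the BCAS groups. *Hspa8* lay between 1390 and 1796 CPM, *Hsp90aa1* between 942 and 1224, *Hsph1* between 241 and 350, and *Hspa5* between 170 and 222 CPM. No gene named from these 6 lists had an adjusted p under 0.05 in these comparisons (limma). Several of their calls did not hold under the alternatives. Between the BCAS groups, *Fosl2* lost its call in 8, *Cdkn1a* in 6, *Arl4d* in 5, and *Klf4* in 3 of 14. With the label WT against sham, *Nfil3* and *Tsc22d3* lost it in 7 of 15, *Inhba* in 2, and *Camk4* in 1, while *Klf4* and *Rgs2* kept it in all 15. With the label TRPA1-KO against sham, *Camk4* lost it in 7 and *Crem* in 3 of 15.

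**Figure D4:**
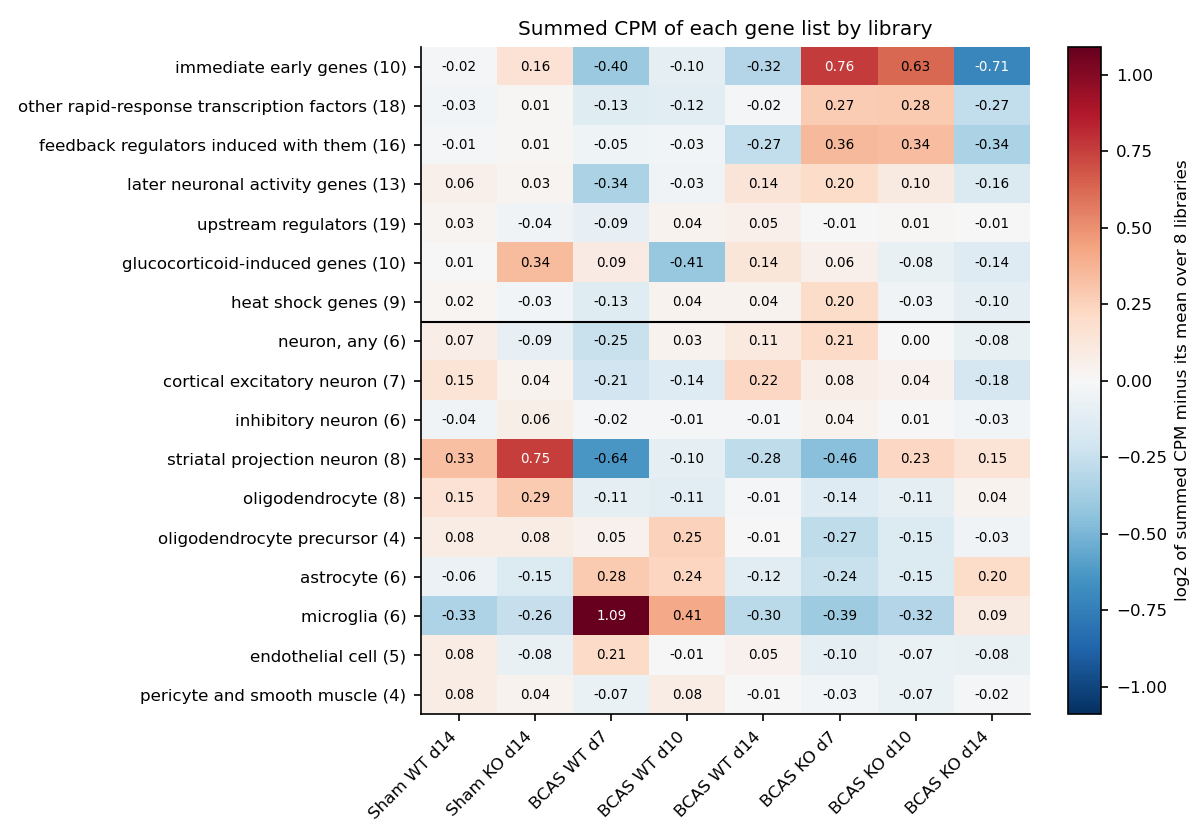
Log2 of the summed CPM of each gene list minus its mean over the 8 libraries (colour and printed value), for the members and 6 related lists above the line and cell type markers below it, with the number of genes in parentheses and 1 column per library (KO for TRPA1-KO). The members, the other rapid-response factors, and the feedback regulators are highest in BCAS TRPA1-KO on days 7 and 10 and lowest on day 14, and upstream regulators are nearly level.

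Cell type markers were compared over the same libraries, and their part in the members' levels was not tested. The 6 general neuronal genes, led by *Snap25*, summed to 5741 and 5122 CPM in the sham libraries, 4599, 5591, and 5886 CPM in BCAS labelled WT, and 6303, 5448, and 5148 CPM in BCAS labelled TRPA1-KO. Their range was 1.37 times, and none of the 6 passed in any of the 3 comparisons. The 7 cortical excitatory neuron genes, led by *Camk2a*, summed to 5950 and 5521, then 4652, 4871, and 6266, and then 5661, 5534, and 4725 CPM in the same order, and none of the 7 passed. The 6 inhibitory neuron genes, led by *Gad1*, stayed between 743 and 796 CPM in total, and *Vip* was the 1 gene that passed (0.44, TRPA1-KO against sham). The summed neuronal markers had r = 0.46 with the members' mean z score over 8 libraries, cortical markers 0.39, and inhibitory markers 0.62.

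Markers of striatal projection neurons moved more. These 8 genes, led by *Ppp1r1b*, summed to 1290 and 1730 CPM in sham, 660, 960, and 846 CPM in BCAS labelled WT, and 748, 1202, and 1139 CPM in BCAS labelled TRPA1-KO. All 8 fell with the label WT against sham and 7 of 8 with the label TRPA1-KO (limma p under 0.05, none with an adjusted p under 0.05), against 3.01% and 1.67% of all genes that fell in these comparisons. For example, *Penk* differed by -1.03 and -0.57, and it was also lower with the label WT between the BCAS groups (-0.47). *Egr2*, *Fosb*, and *Npas4* with the label WT were lower against the same sham libraries, and both sham libraries lay above all 6 BCAS libraries in the striatal sum. That sum had r = 0.18 with the members' mean z score, and it was low on day 7 with the label TRPA1-KO, where 9 of the 10 members were highest or second highest.

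Glial markers ran in part against the members. The 6 microglial genes, led by *Csf1r*, summed to 215 and 227 CPM in sham, 577, 360, and 221 CPM in BCAS labelled WT, and 207, 217, and 289 CPM in BCAS labelled TRPA1-KO, with r = -0.55 with the members' mean z score. Between the BCAS groups, 6 of 6 had higher values with the label WT, as did 9114 of all 18123 genes. Of the 6, 2 passed, *Csf1r* (0.60) and *Tmem119* (0.55), while 435 of all 18123 genes passed with higher values. Against sham with the label WT, 6 of 6 were also higher (median 0.65), and *Csf1r* (0.68) and *Aif1* (0.86) passed. In that comparison, 8992 of all 18123 genes were higher and 443 of these passed. The 6 astrocyte genes, led by *Slc1a2*, summed to 4056 and 3821 CPM in sham, 5161, 4994, and 3905 CPM in BCAS labelled WT, and 3590, 3825, and 4857 CPM in BCAS labelled TRPA1-KO, with r = -0.73. Within them, *Aldh1l1* was higher with the label WT between the BCAS groups (0.46) and rose with that label against sham (0.43). *Gfap*, an intermediate filament gene of reactive astrocytes, measured 200 and 234 CPM in sham, 1415, 1060, and 157 CPM in BCAS labelled WT, and 167, 169, and 427 CPM in BCAS labelled TRPA1-KO, and its differences did not pass. The 8 oligodendrocyte genes, led by *Mbp*, summed to 12735 to 17092 CPM with r = -0.14, and 8 of 8 had lower values than sham with either label, of which 4 passed in the WT comparison and 3 in the other, against the same 3.01% and 1.67% of all genes. *Mog* had an adjusted p under 0.05 against sham with the label TRPA1-KO (-0.73, adjusted p = 0.046), which was the 1 gene of the table to do so. Between the BCAS groups it was higher with the label WT (0.51, limma, adjusted p = 0.16), with a smaller p than that of *Npas4*. The precursor gene *Gpr17* (0.48) and the endothelial genes *Pecam1* (0.33) and *Ly6c1* (0.27) were also higher with the label WT at a p under 0.05 before adjustment. Oligodendrocyte precursor genes had r = -0.59, endothelial genes -0.51, and pericyte and smooth muscle genes -0.14. Ependymal and choroid plexus genes summed to at most 27.3 CPM. Red blood cell genes, led by *Hba-a1*, summed to 1.11 to 202 CPM, with r = -0.26. *Hba-a1* and *Hba-a2* had identical values in every library, so this sum may count the same reads more than once. No marker was at 0 in all 8 libraries.

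The genes whose pattern over the 8 libraries was most like that of the members were taken from the 15142 other genes that averaged 1 CPM or more, by Pearson's r between log2(CPM + 1) and the members' mean z score. Of these, 42 had an r above 0.9. The highest were *Rcc2* (r = 0.99), *Gpr3* (0.99), and *Siah2* (0.99), followed by *Phf13*, *Zfp97*, *Swi5*, and *Plk3* with r from 0.95 to 0.96. *Gpr3*, a receptor that raises cyclic AMP without a known ligand, measured 8.68 and 10.2 CPM in sham, 7.11, 7.94, and 7.13 CPM in BCAS labelled WT, and 14.2, 13.0, and 5.93 CPM in BCAS labelled TRPA1-KO. Its highest level was 2.40 times its lowest, a range near that of the members, while *Rcc2* varied 1.16 times, *Siah2* 1.41 times, *Plk3* 1.80 times, and *Swi5* 1.09 times. The remaining 3 of the 10, *Amy2a2*, *Amy2a3*, and *Amy2a4*, had identical values in every library, at most 3.90 CPM, and are near-identical amylase copies whose reads cannot be assigned to one of them.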

How the data were processed

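RNA of snap-frozen corpus callosum was sequenced in 8 libraries. The authors selected polyadenylated RNA, and their processing notes name HISAT version 2.1.0 (mapping to GRCm38), subread version 2.0.1 (counting), and edgeR version 3.34.1 (normalization). The gene annotation and strand setting are not given in the sources used here. The deposited signal is a CPM value without log transformation, in which reads were scaled by an effective library size. All values (100%) were whole multiples of 1 read within 0.001, so whole reads were recovered, and 3 reads correspond to 0.235 to 0.378 CPM.

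For the tests, limma version 3.58.1 (R version 4.3.3, trend on mean expression) was applied to log2(CPM + 1) of the 18123 genes averaging 0.1 CPM or more, with Benjamini-Hochberg adjustment. This scale understates changes of low genes. BCAS groups were compared over 6 libraries, and comparisons with sham used all 8. The threshold was a p of 0.05 before adjustment, as in the study. Single members were also compared by exact permutation tests (scipy version 1.17.1). With 1 library per label and day, p-values measure the spread between libraries, days included. Alternatives were edgeR version 4.0.16 (quasi-likelihood) and DESeq2 version 1.42.0 on recovered reads, a pseudocount of 0.1, no filter or a mean of 1 CPM, equalized library medians, the day as a block, all 8 libraries in one fit, and each library left out. The labels give the day, so values with the block stand beside the results whose calls it changed. The deviations of a day's 2 BCAS libraries from their group means had correlations of -0.10, 0.005, and -0.26 over 10744 genes for days 7, 10, and 14, and had the same sign for 4, 9, and 6 of the 10 members. The limma, edgeR, and DESeq2 steps were tested on simulated data.

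The members and lists were chosen with earlier results of these data known. From each list, the text names up to 4 genes of highest mean CPM and genes with a p under 0.05 in one of the first 3 comparisons, and of the cell type lists those that bear on the members. From the transcription factor and feedback lists, genes with a negative r to the members' mean z score are named as well. Genes that this rule would name but that are withheld are not reported here. *Mkl1* and *Mkl2* of the upstream list are measured as *Mrtfa* and *Mrtfb*. Exon lengths and positions are from GENCODE M21.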

Additional observations from a re-analysis of the deposited data

Results flagged for a closer look

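*Npas4* stood out because its 3 BCAS libraries labelled WT all lay below the sham library of the same label (0.542, 0.571, and 0.559 times on days 7, 10, and 14), while its 3 BCAS libraries labelled TRPA1-KO all lay above theirs (1.20, 1.45, and 1.07 times). The difference between the responses was -1.10 in log2(CPM + 1) by limma's interaction term (adjusted p = 1.0). It stayed between -1.20 and -0.98 over the 12 alternatives run for this term, which did not include the day as a replicate block. The filters leave the difference itself unchanged, and neither sham library could be left out. The range therefore does not show how far the term depends on the single sham libraries. Each label has 1 sham library, and the sham library labelled WT was the higher of the 2 (32.0 against 24.7 CPM). Which gene stood out was seen in these data, and no member other than *Npas4* showed this pattern.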

How the results depend on the processing

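Between the BCAS groups, all 10 members were lower with the label WT under each of the 14 alternatives. Their median difference lay between -1.01 and -0.31 over the fits that left out 1 library. The filters, the day as a block, and the fit over all 8 libraries change only the p, so they could not change a direction. On day 14 alone, 8 of 10 members were lower with the label TRPA1-KO. The number of members with a p under 0.05 was 2 by limma (761 of all genes), 4 by edgeR (948 of all genes), and 1 to 10 with 1 library left out. An adjusted p under 0.05 was reached by 1 member with DESeq2 and by 0 to 1 with 1 library left out. For BCAS labelled WT against sham, the count of 3 became 1 with no filter on low values, and 1 to 7 with 1 library left out. For BCAS labelled TRPA1-KO against sham, the count of 0 became 0 to 8 with 1 library left out, and the members' median went from -0.04 to 0.54. Against sham, *Ier2* with the label WT ranged from -0.12 to 0.29 over the libraries left out, *Npas4* with the label TRPA1-KO from -0.068 to 0.29, and *Egr2* from -0.60 to 0.37. With the day as a replicate block, 5 members passed between the BCAS groups, 8 for the label WT against sham, and 1 for the label TRPA1-KO against sham (*Egr2*), whose median became -0.27, while 632, 509, and 371 of all 18123 genes passed. *Fosb* with the label WT against sham was not among them. In those fits *Ier2* with the label WT reversed to -0.55 and *Fos* with the label TRPA1-KO to -0.33. The cause of these changes was not tested.

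Over all genes, the 761 with a p under 0.05 between the BCAS groups became 325 without the BCAS TRPA1-KO day 10 library and 1846 without the BCAS WT day 14 library. The 988 for the label WT against sham became 509 with the block, 357 without the sham library labelled TRPA1-KO, and 2013 without the BCAS WT day 14 library. The 496 for the label TRPA1-KO became 254 by DESeq2, 191 without the sham library labelled TRPA1-KO, and 325 without the BCAS TRPA1-KO day 7 library. The 271 of the interaction became 629 with no filter, 98 by DESeq2, 723 without the BCAS WT day 14 library, and 161 without the BCAS TRPA1-KO day 10 library. With the label of each sham library as its own group, leaving out a sham library left no fit of the interaction. No alternative that was run made a member pass an adjusted p of 0.05 in the interaction or against sham. Every member had at least 56 reads in every library, and the part of depth and of replication in these counts was not tested.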

Other observations

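Because *Per1* followed the members, 14 circadian clock genes were examined, a list chosen after these values were seen. Their summed level lay between 1693 and 1954 CPM, a range of 1.15 times, with r = 0.73 to the members' mean z score over 8 libraries, as a description. *Per1* is one of the 14, and without it the sum of the other 13 had r = 0.50 and a range of 1.13 times. Between the BCAS groups, 12 of 14 were lower with the label WT, with a median difference of -0.12 in log2(CPM + 1), where 49.7% of all genes were lower. *Arntl* lay between 19.2 and 26.8 CPM, *Nr1d1* between 242 and 276 CPM, and *Dbp* between 93.1 and 116 CPM over the 8 libraries. Between the BCAS groups, *Dbp* (-0.18), *Nr1d2* (-0.20), and *Cry2* (-0.22) were lower with the label WT at a limma p under 0.05 before adjustment. At this threshold, 1.80% of all genes were lower with the label WT. Against sham, *Per2* fell with the label WT (-0.43), as did 3.01% of all genes. None of the 14 had an adjusted p under 0.05 by limma. Under the alternatives, *Cry2* lost its call in 6, *Dbp* in 5, and *Nr1d2* in 3 of 14, and *Per2* in 3 of 15. The hour at which each brain was frozen is not given in the sources used here.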
